A study of Mus musculus with 4 samples.

Results

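The 10 genes described here encode matricellular proteins: the tenascins Tnn, Tnc and Tnxb, the thrombospondins Thbs1, Thbs2 and Thbs3, the fasciclin-domain protein gene Postn, and the SPARC family genes Sparc, Smoc1 and Smoc2. They were taken as every probe set whose platform annotation gave 1 gene symbol and whose symbol was 1 of these, which gave 17 probe sets of 45037, for 10 genes of 18193. The genes were chosen by family, with their knockout and control readings from these same arrays already known, so their differences between the genotypes are given as descriptions with no test. The arrays measured total RNA of immortalized mouse brown preadipocytes, the precursors of brown fat cells, on a mixed C57/BL6-129 background. All 4 carried floxed alleles (f/f) of the gene for G9a, a histone H3 lysine 9 methyltransferase. The 2 control arrays came from cells given vector (Vec, labelled wild type) and the 2 knockout arrays from cells given Cre (labelled G9a knock out). How Cre was delivered, and whether arrays of a group were separate cultures, is not stated in the sources used here. Sex-linked transcripts, given below, differed between the 2 arrays of each group. The p-values measure only the spread between these arrays.

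Matricellular proteins are secreted into the extracellular matrix but do little to build it. They bind integrins and other receptors, collagens, proteases and growth factors, and so alter how cells attach, spread and signal. In fat tissue and other connective tissue they are made mainly by stromal and progenitor cells, often during development, wound repair or fibrosis. SPARC is known in mice as a protein that restrains the formation of fat cells.

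No promoter was at hand for Thbs1, Smoc1 and Smoc2. For the other 7 of the 10 genes, RefSeq (GRCm38.p6) promoters ran from 250 bases before to 50 after an annotated start. The 3 below are shown because they belong to the tenascin gene that differed most, to the tenascin gene that differed least, and to Postn. Where a gene had 2 annotated starts the downstream one is printed. The Tnn promoter lies at chr1:160153526-160153825 on the minus strand, that of Tnc at chr4:64046887-64047186 on the minus strand and that of Postn at chr3:54360857-54361156 on the plus strand. Capitals mark CATTCC, the core bound by TEAD factors, or its reverse complement, and TATAAA, the usual letters of a TATA box.
Tnn: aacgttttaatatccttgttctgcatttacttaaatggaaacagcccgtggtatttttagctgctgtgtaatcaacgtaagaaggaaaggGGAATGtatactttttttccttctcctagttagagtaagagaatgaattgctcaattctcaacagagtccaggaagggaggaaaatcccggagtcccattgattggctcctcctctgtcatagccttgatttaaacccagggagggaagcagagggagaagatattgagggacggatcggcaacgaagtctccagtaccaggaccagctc
Tnc: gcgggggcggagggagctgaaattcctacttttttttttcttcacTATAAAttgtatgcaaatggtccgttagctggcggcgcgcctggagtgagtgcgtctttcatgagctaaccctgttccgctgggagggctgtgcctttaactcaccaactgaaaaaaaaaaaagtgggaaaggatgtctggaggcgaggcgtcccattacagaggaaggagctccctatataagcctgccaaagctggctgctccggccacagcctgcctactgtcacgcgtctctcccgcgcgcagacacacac
Postn: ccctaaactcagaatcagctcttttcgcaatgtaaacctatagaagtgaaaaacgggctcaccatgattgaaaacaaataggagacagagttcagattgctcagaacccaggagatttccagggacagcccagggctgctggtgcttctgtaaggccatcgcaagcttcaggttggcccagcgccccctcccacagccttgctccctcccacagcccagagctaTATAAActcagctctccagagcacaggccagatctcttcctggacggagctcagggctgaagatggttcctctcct

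Both strands were searched for TGANTCA (AP-1), CATTCC and TATAAA, and each match is a match of letters only. TATAAA began 26 bases before the printed Postn start, and it was not in the window of the other Postn start. In Tnc it began 205 bases before the printed start, or 126 before the upstream one. The printed Tnc sequence also holds the similar letters tatataag, nearer to its start, which the search did not cover. Tnn had CATTCC in reverse, beginning 160 bases before the start. Over all 32851 promoters of the table, 14.7% held CATTCC, 13.6% TATAAA and 7.81% TGANTCA. The Tnn window held 7 CG dinucleotides, equal to the median of all promoters. The Tnc window held 16 and the Postn window 5. Of the other promoters, those of Sparc and Thbs3 held none of the 3 motifs, that of Thbs2 held TATAAA in reverse and that of Tnxb held TGANTCA, which reads the same on both strands.

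As a check of the labels, the brightest probe set of Ehmt2, the G9a gene, had a signal of 2682 and 2688 with vector and 953 and 912 with Cre. The labels do not say which exons were deleted. Array medians lay between 50.6 and 78 units. Transcripts linked to sex differed between the replicate numbers: 1 probe set of the X-linked Xist read 11049 and 9810 in control and knockout 1 and 41.8 and 58 in control and knockout 2. A probe set of the Y-linked Eif2s3y read 141 and 228 in control and knockout 1 and 1127 and 1265 in control and knockout 2. The 2 arrays of each group thus came from cells that differed in sex-linked transcripts. Differences are therefore given within each number as well as between groups. Below, levels are deposited signal units, and differences are knockout minus control in quantile-normalized log2(signal + 16). Unless stated, the limma standard error beside them (SE, n = 2 against 2) is from the model without the number as a block. Each pair of values gives number 1 first, with vector for the controls and with Cre for the knockouts. A level of 1 probe set cannot be compared with that of another.

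Tnn, which encodes tenascin-N (also named tenascin-W), had almost no signal on the control arrays and a clear signal on both knockout arrays. Its single probe set read 4.5 and 6.6 with vector and 418 and 247 with Cre. The groups were far apart, and both control readings were below their array's median. The log2 difference was 3.92 ± 0.32, with 4.30 within number 1 and 3.54 within number 2. Because the control readings were so low, its size was set by the value added before taking logs: it was 5.49 with 1 and 2.46 with 64 in place of 16. In bulk RNA a change in the number of cells with Tnn and a change in RNA per cell cannot be told apart.

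Tnc, the tenascin of developing and wounded tissue, was bright on all arrays and did not follow the genotype. Its brightest probe set (1416342_at) read 4491 and 9318 with vector and 4963 and 8750 with Cre, so that both arrays of number 2 were higher than both of number 1. The difference between genotypes was 0.02 ± 0.36, with 0.16 within number 1 and -0.13 within number 2. The dimmer probe set (1456344_at) read 287 and 186 with vector and 181 and 263 with Cre, differing by -0.71 within number 1 and 0.41 within number 2. These readings of 1 gene did not share a pattern, and neither placed the knockout arrays apart from the controls. With 1 array left out, the difference of the brightest set ran from -0.47 without control 1 to 0.50 without control 2.

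Tnxb, the large tenascin whose loss causes a form of Ehlers-Danlos syndrome in humans, was dim. It read 20.5 and 22.5 with vector and 15.5 and 20.2 with Cre, below the median of every array, and did not reach the level filter for testing. Among the tenascins, then, 1 was far higher on the knockout arrays, 1 was bright with groups that overlapped and 1 was near the floor of the measurement.

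**Figure D1:**
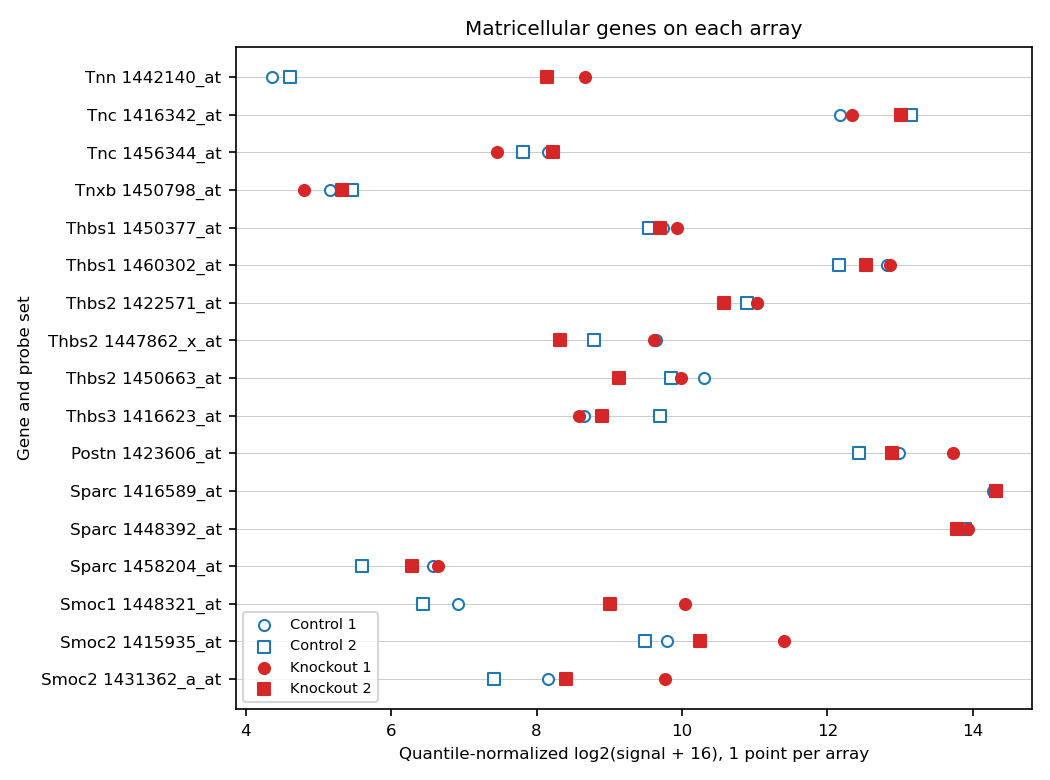
Quantile-normalized log2(signal + 16) of the 17 probe sets on each of the 4 arrays (open blue, controls; filled red, knockouts; circles, number 1; squares, number 2). The red and blue points of Tnn, Smoc1 and both Smoc2 probe sets are apart, while those of Tnc 1416342_at part by number, with number 2 higher.

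Smoc1 and Smoc2, the 2 SPARC-related modular calcium-binding proteins of basement membranes, were both higher on the knockout arrays. Smoc1, whose product acts as an inhibitor of BMP signalling in frogs, read 115.5 and 58 with vector and 1033 and 479 with Cre. The groups did not overlap, and within each group number 1 was the higher array. Its log2 difference was 2.85 ± 0.40 (95% interval 1.88 to 3.82), or 7.19-fold, with 3.12 within number 1 and 2.58 within number 2.

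Smoc2 had 2 probe sets that ran alike. The brighter (1415935_at) read 899 and 687 with vector and 2631 and 1171 with Cre, a log2 difference of 1.18 ± 0.40. The dimmer (1431362_a_at) read 287 and 135 with vector and 863 and 300.5 with Cre, a difference of 1.30 ± 0.50. Both had their highest reading on knockout 1. Within number 1 the differences were 1.61 on each probe set, and within number 2 they were 0.75 and 0.99. Without knockout 1 the differences were 0.61 and 0.62, and without knockout 2 they were 1.76 and 1.98. The dimmer set parted the groups by a narrow gap between control 1 and knockout 2.

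Sparc itself, the founding member and a collagen-binding glycoprotein gene, was bright on all arrays, with small differences on its bright probe sets. Its brightest probe set (1416589_at) read 18951 and 20244 with vector and 20848 and 20882 with Cre, at the 99.99th percentile of all probe sets. The highest signal of any probe set on an array was between 22104 and 24783, so these readings lay near the top of the range, and whether they could show a further rise was not tested. The log2 difference was 0.02 ± 0.07 (95% interval -0.16 to 0.20), and with median centring it was -0.02. The second bright set (1448392_at) read 14507 and 15196 with vector and 15839 and 14777 with Cre, a difference of -0.04 ± 0.09. The remaining set (1458204_at), which was dim, read 86.8 and 26.2 with vector and 102 and 52.3 with Cre, and differed by 0.06 within number 1 and 0.68 within number 2. The 2 bright sets differed by at most 0.11 in size within a number.

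Postn, which encodes periostin, a matrix protein that binds integrins and collagen and helps its crosslinking, was higher in the knockout within each number. It read 7655 and 5755 with vector and 13636 and 7937 with Cre. Knockout 2 lay just above control 1 in signal and just below it after quantile normalization, where the groups overlapped. The log2 difference was 0.60 ± 0.31 (95% interval -0.15 to 1.35), with 0.74 within number 1 and 0.46 within number 2. With the number as a block its SE was 0.096. The difference was 0.18 without knockout 1, 1.02 without knockout 2 and 0.32 without control 2.

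The thrombospondins did not move together. Thbs1, an activator of latent TGF-beta and a ligand of CD47 and CD36, read 6842 and 4701 with vector and 7181 and 6222 with Cre on its brightest set (1460302_at), a difference of 0.21 ± 0.25. Its other set (1450377_at) read 864 and 718 with vector and 968 and 792 with Cre, a difference of 0.17 ± 0.24. All 4 differences within a number were positive, between 0.05 and 0.37. The difference of 1460302_at was 0.53 without control 1, -0.12 without control 2, 0.04 without knockout 1 and 0.37 without knockout 2. A further probe set carried the symbols of Thbs1 and of another gene and was left out.

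Thbs2, an inhibitor of angiogenesis that also limits matrix metalloproteinase 2, had 3 probe sets that tended lower. The brightest (1422571_at) read 2064 and 1916 with vector and 2031 and 1493 with Cre, a difference of -0.16 ± 0.24. The next (1450663_at) read 1280 and 905 with vector and 996 and 526 with Cre, a difference of -0.52 ± 0.35. The last (1447862_x_at) read 806 and 403 with vector and 781 and 282 with Cre, a difference of -0.26 ± 0.50. Within number 2 the 3 sets were lower by -0.32, -0.71 and -0.48. Within number 1 they differed by 0.01, -0.33 and -0.04, so most of the lower signal stood on knockout 2. With 1 array left out the differences ran from -0.39 to 0.07 for 1422571_at, from -0.94 to -0.10 for 1450663_at and from -0.91 to 0.39 for 1447862_x_at, each lowest without knockout 1 and highest without knockout 2.

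Thbs3, a pentameric thrombospondin gene best known from cartilage and heart, read 407 and 806 with vector and 395 and 439 with Cre. Control 2 stood above the other 3 arrays, which lay close together. The log2 difference was -0.44 ± 0.39, with -0.07 within number 1 and -0.80 within number 2. Without control 2 it was 0.09, and without control 1 it was -0.96.

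**Figure D2:**
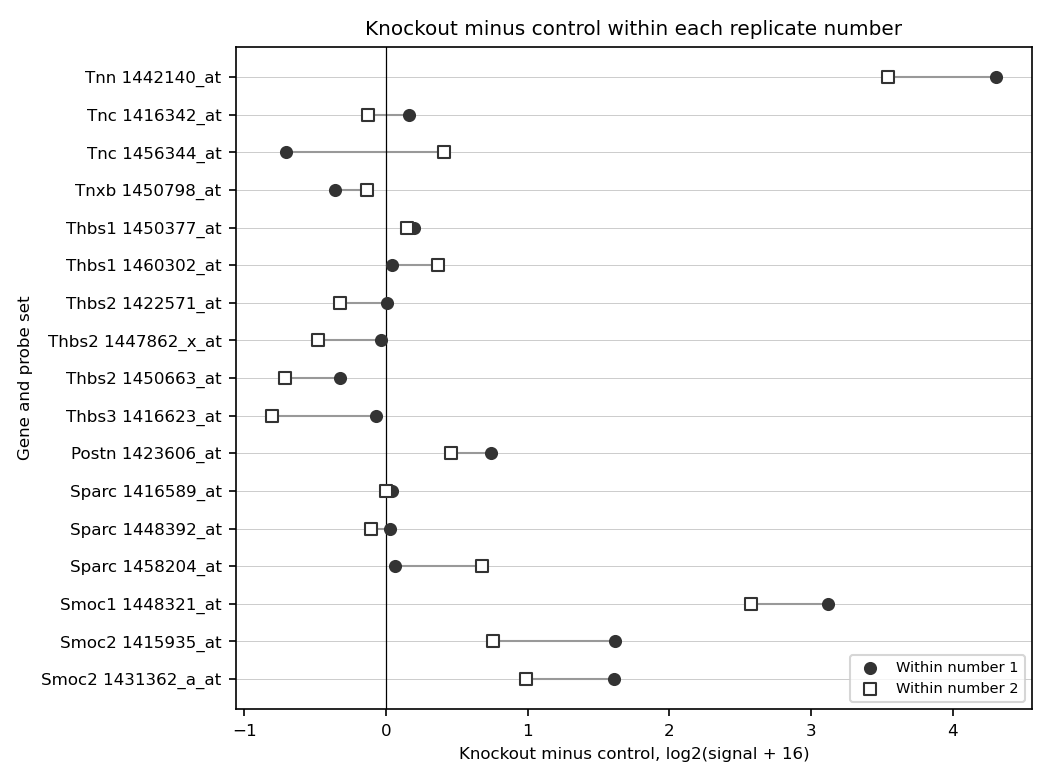
Knockout minus control in log2(signal + 16) within number 1 (filled circles) and number 2 (open squares) for the 17 probe sets. Tnn, Smoc1, Smoc2 and Postn lie to the right of 0 in both numbers. Both Thbs1 sets and Sparc 1458204_at do too, as does Sparc 1416589_at, which lies almost on 0. Tnc crosses 0 on both of its probe sets, and Thbs2 and Thbs3 lie at or left of 0.

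Of the 17 probe sets, 16 for 9 genes passed the level filter. Tnn, dim in the controls, passed it through its knockout arrays, so the counts that follow describe the 16 and support nothing. Without overlap of the groups, 5 were higher in the knockout, where 14.2% of all tested probe sets were, and 0 were lower, where 15.8% were. Those 5 were Tnn, Smoc1, both Smoc2 sets and the brightest Sparc set. After normalization that Sparc set parted the groups narrowly, with control 2 at 14.317 and both knockouts at 14.319. Its difference was -0.02 with median centring. At least 2-fold higher without overlap were 4, against 1.49% of all, and 0 were at least 2-fold lower, against 0.511%. Within both numbers 9 were higher (27.9% of all) and 3 lower (33.2%), and 4 differed in opposite directions (38.8%). The median difference was 0.096 over the 16 and -0.02 over all tested probe sets. The count of 4 was 2 without knockout 1, and 1 with a stricter level filter at the 75th percentile, which removed Tnn, Smoc1 and the dimmer Smoc2 set. With a pseudocount of 1 in place of 16 it was 3, since Tnn then fell below the level filter.

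The contrast between the replicate numbers was not used in choosing the genes and was tested. Each number holds 1 array per genotype, which the model counts as separate replicates, although same-numbered arrays may share a cell source. The p-values therefore speak for these arrays and not for further cell sources. In a limma model with genotype as a covariate, 8 of the 16 tested probe sets differed between numbers 2 and 1 at an adjusted p under 0.05, where 15% of all tested probe sets did. Of these, 1 was higher in number 2 (7.39% of all) and 7 were lower (7.6% of all). The higher one was Tnc, by 0.82 ± 0.10 (limma adjusted p = 0.00101), with 0.97 between the controls and 0.68 between the knockouts.

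Lower in number 2 was Postn, by -0.70 ± 0.096 (limma adjusted p = 0.00169), with -0.55 between the controls and -0.84 between the knockouts. Both Smoc2 sets were lower, by -0.73 ± 0.20 and -1.05 ± 0.21 (limma adjusted p = 0.0357 and 0.00963), and so was Smoc1, by -0.75 ± 0.22 (limma adjusted p = 0.0395). Between the controls the Smoc2 sets differed by -0.30 and -0.74 and Smoc1 by -0.48. Between the knockouts the differences were larger, at -1.15 and -1.37 for Smoc2 and -1.02 for Smoc1. On each of these sets the arrays of number 2 overlapped those of number 1. Thbs1 (1460302_at) was lower by -0.49 ± 0.11 (limma adjusted p = 0.0133). For Thbs2, 1447862_x_at was lower by -1.08 ± 0.19 and 1450663_at by -0.65 ± 0.17 (limma adjusted p = 0.00513 and 0.0306). Thbs3 was higher by 0.69 ± 0.21 and did not pass (limma adjusted p = 0.0506). Tnn differed by -0.14 ± 0.30 (limma adjusted p = 0.789), an average of 0.24 between its near-background controls and -0.53 between its knockouts. Smoc1 and Smoc2, whose genotypes did not overlap, were thus lower in number 2, more so between the knockouts. Postn, whose genotypes overlapped, was lower in number 2 as well. Tnc 1416342_at was higher in number 2, and its genotypes overlapped too.

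These calls depended on the scaling and the model. Between the numbers the median of all tested probe sets was 0.01 after quantile normalization, -0.12 as deposited and 0.27 with median centring. With median centring, 4 member probe sets were higher in number 2 and 2 were lower, and Thbs1 (1460302_at) reached 0.02. Tnc stayed higher, and Smoc1, both Smoc2 sets, Postn and the 2 called Thbs2 sets stayed lower, in sign, under each scaling run. Without the intensity trend, or without genotype in the model, 0 of the 16 passed.

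**Figure D3:**
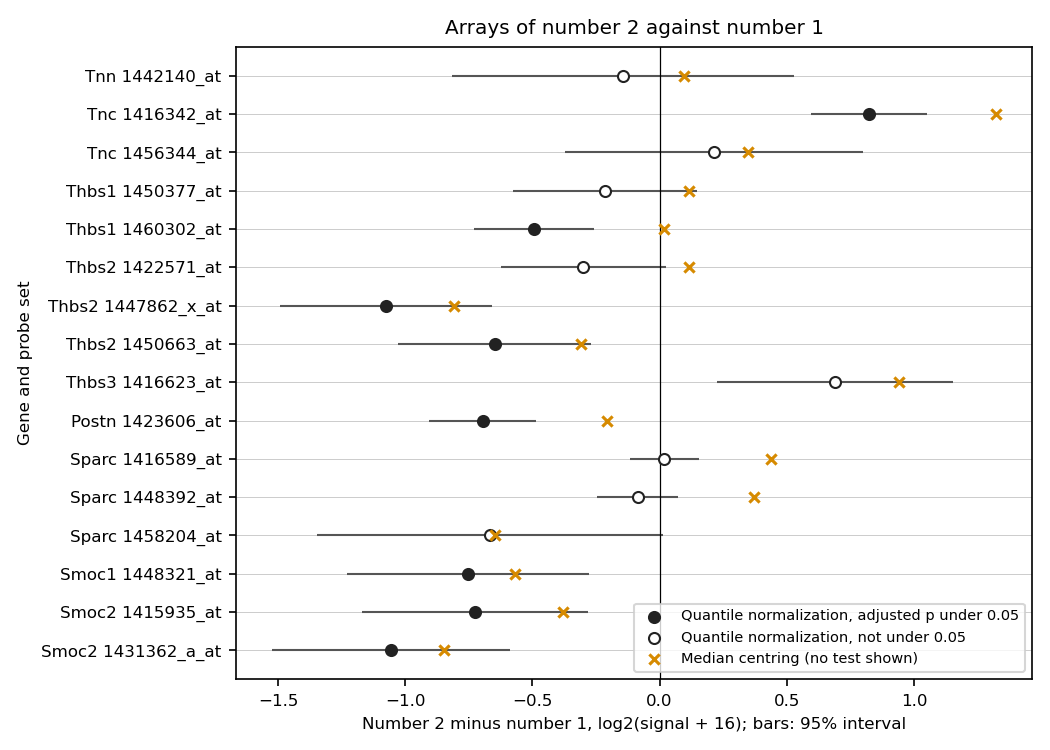
Number 2 minus number 1 in log2(signal + 16) for the 16 tested probe sets, with 95% intervals from limma (circles, filled where the adjusted p was under 0.05) and the same difference with median centring (crosses). Tnc 1416342_at lies at 0.82 and Postn at -0.70, and with median centring Postn lies at -0.21.

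Related genes outside the 10 were read from the same fit between genotypes, in 4 lists written with earlier results of these arrays known. Of 95 listed genes, 71 had a tested probe set, represented by the brightest. Without the pairing of the numbers, limma called 0 of the 71 in either direction, as it called 0% of all 11079 genes higher and 0% lower. At an unadjusted limma p under 0.05, 4 were higher and 1 was lower. The share of all genes at that level is not given here, so these counts have no background. With the replicate number as a block, 10 rose and 0 fell by their brightest probe set, where 3.25% of all genes rose and 0.984% fell. The median difference was 0.09 over the 71 and 0.007 over all genes.

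Among relatives of the 10 proteins, 4 of 7 tested genes rose in the blocked model, and the list's median was 0.35. Tgfbi, which encodes a fasciclin-domain protein related to periostin, read 1107 and 739 with vector and 2699 and 1194 with Cre (1.02 ± 0.42; limma adjusted p = 0.999, and 0.0119 with the block). Its difference was 1.35 within number 1 and 0.69 within number 2, and its 3 other probe sets differed by 0.80 to 1.40. The other 3 that rose were CCN genes, whose products are matricellular too. Ccn5 read 748 and 73 with vector and 1483 and 344 with Cre (1.46 ± 1.02; adjusted p = 0.999, and 0.00511 with the block). Ccn4 differed by 0.52 and Ccn2 by 0.35 (limma adjusted p = 0.0162 and 0.0351 with the block, 0.999 without). The other tested CCN genes did not rise. Ccn3 was lower without overlap, by -0.58 ± 0.36, and Ccn1 differed by -0.02 ± 0.20, and neither passed in either model. Thbs4, Comp and Sparcl1, closest in family to the 10 genes, lay below the level filter.

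Of the receptors, 2 of 23 tested genes rose with the block and the median was 0.13. Itgb3, the integrin beta 3 subunit that pairs with alpha V to bind periostin, tenascins and thrombospondins, read 258 and 228 with vector and 567 and 682 with Cre. Its difference was 1.28 ± 0.25, with 1.14 within number 1 and 1.42 within number 2 (limma adjusted p = 0.424, and 0.00443 with the block). Its partner Itgav differed by 0.07 ± 0.14 and did not pass. Scarb2, which encodes a lysosomal membrane protein of the CD36 family, was 0.59 ± 0.32 higher (limma adjusted p = 0.999, and 0.0461 with the block), while its other probe set differed by -0.06 within number 1 and 0.76 within number 2. Cd47, the receptor of thrombospondin 1, read higher on both knockout arrays, by 0.48 ± 0.17, and did not pass (limma adjusted p = 0.999, and 0.0599 with the block). All 3 probe sets of Cd36, the other thrombospondin receptor, read below 20 on every array.

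**Figure D4:**
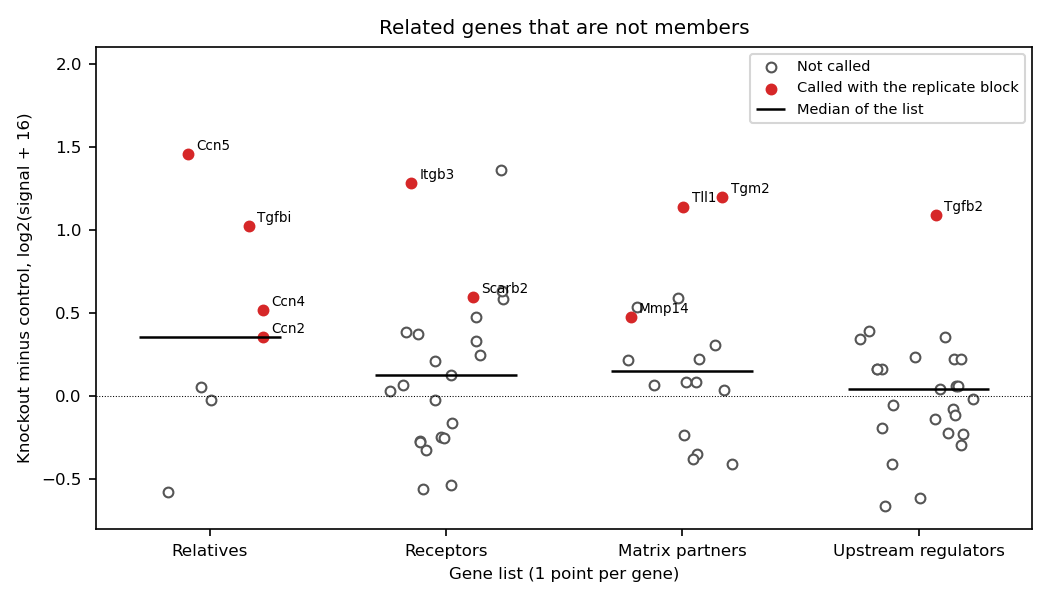
Knockout minus control in log2(signal + 16) of the 71 tested related genes by list (1 point per gene, brightest probe set; line, median of the list; red, adjusted p under 0.05 in the model with the replicate block). All 10 red points lie above 0, and the list medians lie between 0.04 and 0.35.

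Of the matrix partners, 3 of 16 tested genes rose with the block (median 0.15). Tll1, a tolloid protease gene of the family that cleaves procollagens, read 564 and 331.5 with vector and 1137 and 828 with Cre (1.14 ± 0.30; limma adjusted p = 0.728, and 0.00493 with the block). Tgm2, the tissue transglutaminase that crosslinks matrix proteins, was 2.30-fold higher and Mmp14, a membrane-bound collagenase gene, 1.39-fold higher (limma adjusted p = 0.00606 and 0.03 with the block, 0.999 without). Lox, the lysyl oxidase gene whose product acts with periostin, differed by -0.41 ± 0.34, with 0.05 within number 1 and -0.86 within number 2, and did not pass. Adamts5, an aggrecanase gene, differed by -0.35 on its brightest probe set and did not pass, but another of its probe sets fell by 0.87 in the blocked model (limma adjusted p = 0.0135 with the block, 0.999 without). Of the upstream regulators, 1 of 25 rose with the block (median 0.04). It was Tgfb2, a TGF-beta ligand gene, at 264 and 176 with vector and 709 and 323 with Cre (1.09 ± 0.37; limma adjusted p = 0.999, and 0.0202 with the block). All 4 of its probe sets were higher on both knockout arrays. Of the 25, 4 were higher and 4 were lower without overlap, where 17.5% and 13.6% of all tested genes were. Tgfbr3, a TGF-beta receptor gene, was lower on both knockout arrays, by -0.66 ± 0.23. It did not pass (limma adjusted p = 0.999, and 0.0668 with the block).

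By order along the chromosome, Smoc2 and Thbs2 are neighbouring protein-coding genes on chromosome 17, yet Smoc2 was higher on both knockout arrays and no Thbs2 set was. The nearest genes with a tested probe set on each side of the 10 genes were looked up after the members' values were seen. Of these 18 neighbours that were not themselves members, 4 were higher in the knockout without overlap, where 17.5% of all tested genes were, and 1 was lower, where 13.6% were, with a median difference of 0.02. In limma without the block 0 passed, with 1 at an unadjusted p under 0.05, a level whose share of all genes is not given here. With the block 1 rose, where 3.25% of all genes did. That gene was the neighbour of Tnn, 4930523C07Rik, whose function is not annotated in the sources used here. It read 228 and 102.5 with vector and 371 and 379 with Cre (1.13 ± 0.32; limma adjusted p = 0.816, and 0.0352 with the block). Its other tested probe set differed by 1.07, and of 3 dim ones 1 was lower, by -0.36. The neighbour on the other side of Tnn, Mrps14, differed by 0.17.

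Over the 4 arrays, the gene profiles closest to that of Tnn, by Euclidean distance between log2 values centred on each gene's mean, were those of Akr1c13 (0.49), Ces1g (0.99), Tpsab1 (1.15), Ifi27l2a (1.18) and Smoc1 (1.24). Smoc1 was thus the nearest of the other matricellular genes that passed the level filter, which Tnxb did not. Each was chosen for its likeness over these 4 arrays, and no test is attached.

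Marker genes were read to see which cells the RNA could hold, each list as the sum of its genes' quantile-normalized signals. Of the preadipocyte and mesenchymal markers 7 of 8 were tested, among them Vim, Pdgfrb and Dlk1, while Zfp423 read below 4 on every array. The sum ran from 29022 to 33608, most of it from Vim, which read 19767 to 22803. Thy1 read 437 and 526 in control and knockout 1 and 2974 and 2500 in control and knockout 2. In number 2, Thy1 was higher by 2.51 and Ebf2 by 1.54, while Pdgfrb was lower by -0.55 (limma adjusted p = 3.56e-05, 0.00281 and 0.00886). Dlk1, also known as preadipocyte factor 1, read 5421 and 5238 with vector and 1690 and 4882 with Cre (-0.92 ± 0.44; limma adjusted p = 0.999, and 0.108 with the block). After normalization Pdgfra (-0.83) and Cd34 (-0.44) were also lower in the knockout without overlap, while Pdgfrb differed by 0.40 with overlap. None of these passed between genotypes in either model. Of the mature adipocyte genes, Adipoq, Lep and Cidec read below 20 and Retn between 48.1 and 128, and the sum ran from 88.7 to 132. Of the macrophage and leukocyte genes, 4 of 7 were dim, among them Ptprc and Itgam below 20, while Cd14 read 352 to 560.4, Csf1r 143 to 222 and Cd68 92.8 to 163, and the sum ran from 791 to 952. The skeletal muscle sum was higher in the knockout, at 669 and 600.2 against 383 and 302 in the controls, with Acta1, Des and Ckm without overlap between the groups and Myod1, Myog and Myf5 below the median probe set. The endothelial sum was 139 and 101 with vector and 276 and 187 with Cre, with 0 of 6 genes above the level filter. The smooth muscle and pericyte sum was 29353 and 32740 with vector and 35592 and 33708 with Cre.

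Chondrocyte and osteoblast genes, from tissues where several of these matrix proteins are abundant, summed to 523 and 511 with vector and 802 and 423 with Cre. Acan, the aggrecan gene, read 76.5 and 6.3 with vector and 360.1 and 93.2 with Cre (limma adjusted p = 0.999, and 0.00181 with the block). Sox9, a transcription factor gene needed for cartilage, read 287.5 and 250.5 with vector and 135 and 99.5 with Cre (limma adjusted p = 0.486, and 0.0159 with the block). Schwann and neural crest genes summed to 227 and 162 with vector and 747 and 215 with Cre, with Erbb3 at 511 on knockout 1 and at most 95.4 on the others. The part of other cell types in the values of the 10 genes was not tested.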

How the data were processed

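Total RNA was measured on 4 Affymetrix mouse arrays, 2 per group. The authors deposited 1 linear signal intensity per probe set and array, made with MAS5 per the submitters' processing notes, without a stated version. Each array had a mean of 500 after trimming 2% from each end. Precision is limited by the number of arrays.

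From 45101 probe sets, 64 controls were removed. Signals were quantile normalized, since array medians still differed, and taken as log2(signal + 16). The brighter ones by mean, from the 50th percentile up (22519), were tested in R 4.3.3 using limma 3.58.1 (lmFit, then eBayes on a trend of variance with level), with Benjamini-Hochberg adjustment over all of them. The model between genotypes had 2 residual and 4.1 prior degrees of freedom, and models with both factors had 1 and 9.81. The scripts were tested on simulated data.

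Same-numbered arrays had deviations from their group means that correlated at 0.603 across probe sets. For this reason, and because sex-linked transcripts part the numbers, differences are also given within each number and from a model with a block. The model without the block remained the main one, and its SE holds the difference between the numbers too. Without and with the block, the SE was 0.31 and 0.096 for Postn, and 0.32 and 0.30 for Tnn.

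Symbols came from the platform annotation and were updated by gene ID to RefSeq GRCm38.p6. A related gene is its brightest tested probe set, and those called in either model are named, up to 6 per list by smallest p, beside background genes. The genes and lists were chosen with earlier results of these data known. Tried instead were median centring or the deposited scaling, a pseudocount of 1 or 64, a level filter at the 75th percentile or none, a robust or trend-free eBayes, leaving out each array, the replicate block, omitting sets whose name marks matches to more than 1 transcript, and leaving out the genotype covariate.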

Additional observations from a re-analysis of the deposited data

Results flagged for a closer look

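Within the 2 replicate numbers, 4 probe sets of the matricellular genes differed between genotypes in opposite directions, which the 2 arrays per group do not allow to be tested. For Tnc, 1416342_at differed by 0.16 within number 1 and -0.13 within number 2, and 1456344_at by -0.71 and 0.41. Thbs2 (1422571_at) differed by 0.0058 and -0.32, and Sparc (1448392_at) by 0.028 and -0.11.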

How the results depend on the processing

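Between genotypes, 2 probe sets of all tested were called higher and 0 lower. The higher count was 1 with a pseudocount of 1, with the 75th percentile filter and without the probe sets that can match several transcripts, 0 without a filter and without the trend, and 14 with median centring, where 2 were lower. With the replicate block 516 were higher and 192 lower, and 10 related genes were higher instead of 0. Leaving out 1 array gave 7 to 28 higher and 0 to 3 lower. The member probe sets at least 2-fold higher without overlap, 4 in number, were 1 with the 75th percentile filter, which tests fewer. They were 3 with a pseudocount of 1, where Tnn did not pass the level filter, and 2 to 5 with 1 array left out. Between the numbers, 1665 probe sets were higher and 1711 lower, or 335 and 445 without a filter, 6370 and 907 with median centring, 57 and 93 without the trend and 10 and 16 without the genotype covariate. The lower count was 3210 as deposited and 1075 without the probe sets that can match several transcripts. Of the members, 1 higher and 7 lower became 4 and 2 with median centring, 0 and 0 without the trend or the covariate, 2 lower without a filter, and 2 higher without the multiple-transcript sets. Signs turned with median centring for Sparc 1416589_at (-0.0172) and Tnc 1416342_at (-0.0817) between genotypes and, between the numbers, for Thbs2 1422571_at (0.12), Tnn (0.097), Sparc 1448392_at (0.37) and Thbs1 (0.12 and 0.0157), and as deposited for Tnc 1456344_at between the numbers (-0.0398) and Sparc 1448392_at between genotypes (0.0431). With 1 array left out, the genotype difference turned sign on 9 of 17 member probe sets, none of them Tnn, Smoc1, Smoc2 or Postn. Beyond the stated constructions, the cause was not tested. The contrast between numbers could not be tested with 1 array left out, for lack of residual degrees of freedom. Dim probe sets such as Tnn in the controls are limited by background.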
